A study of Mus musculus with 8 samples.

Results

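Expression of 10 genes that carry lipids into, through and out of macrophages was followed in bone marrow derived macrophages given SLIT2 or vehicle. They were taken by gene symbol from a table of 41444 genes, and all 10 were found: Cd36 and Lpl for uptake, Plin2 and Soat1 for storage, Lipa, Npc1 and Npc2 for the endolysosome, and Abca1, Abcg1 and Apoe for efflux. The SLIT2 group held 4 libraries of macrophages treated with 6 nM SLIT2, a secreted ligand of ROBO receptors, for 16 hours. The vehicle group held 4 libraries of macrophages given vehicle control. All cells were wild type, came from C57BL/6 mice and had been grown from marrow in medium with M-CSF, the growth factor that drives macrophage differentiation. The labels do not tie replicates to separate cultures or animals, and each p-value therefore reflects only how these libraries varied, which may be technical.

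Macrophages take up lipoproteins and fatty acids through scavenger receptors such as CD36, and release fatty acids from triglyceride-rich lipoproteins outside the cell with lipoprotein lipase. Cholesteryl esters that arrive in lysosomes are cut by lysosomal acid lipase, and the free cholesterol leaves through NPC2 and NPC1. It is then either esterified again by SOAT1 and kept in lipid droplets coated by perilipin 2, or exported by ABCA1 and ABCG1 to acceptors that include apolipoprotein E. The balance of these steps is best known from the foam cells of atherosclerotic plaques.

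Expression is given as rlog (regularized log) values, which are log2 values, so a negative difference is a lower level with SLIT2. The files hold no read counts, which leaves the depth of each library unknown and allows no interval for counting error. The limma test covered the 11851 genes whose rlog averaged 4 or more, and all 10 genes were among them. Replicates 1 and 2 stood apart from replicates 3 and 4 in both groups, and over all genes tested 46.7% of the variation (sum of squares) went with this division and 37.3% with treatment. Xist, the RNA of the silenced X chromosome, was between 7.47 and 7.65 in the first pair and between 12.69 and 12.79 in the second. Ddx3y, a gene of the Y chromosome, was between 10.75 and 10.83 in the first pair and between 5.90 and 6.45 in the second. The labels do not say whether the libraries of a pair share a source, so the 4 libraries of a group may be 2 sources in duplicate. Differences within each pair of replicate numbers are therefore given beside the pooled ones. All 8 macrophage markers checked were tested, and their summed level (log2 of the sum of the linear values) was 18.96 to 19.51 in SLIT2 libraries and 19.03 to 19.54 in vehicle libraries. Lyz2, with means of 18.71 with SLIT2 and 18.80 with vehicle, weighs most in this sum, which does not show that the other markers held steady. Of the macrophage markers, Cd68 was lower and Fcgr1 higher past the threshold. The 6 markers of adipocytes, the other cell type rich in lipid genes, were all below the filter. Adipoq did not vary between libraries, and Plin1, Cidec and Lep were listed at 0 in every library. A listed 0 alone does not show absence, since Tyrobp, which macrophages express, was also listed at 0 in every library. In the lists for osteoclasts, dendritic cells, neutrophils, stroma, endothelium, lymphocytes, mast cells and erythroid cells, Dcstamp and Cd4 were lower, Col3a1 was higher and no other tested marker passed. Many were below the filter and could not pass. Those tested were 1 of 5 for dendritic cells, 1 of 8 for neutrophils, 1 of 4 each for lymphocytes and mast cells and 0 of 3 for erythroid cells. The part of these cell types in the results was not tested.

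Of the 10 genes, those for uptake, storage and lysosomal hydrolysis were lower with SLIT2, while no efflux gene among them passed the test. In all, 5 genes fell, namely Cd36, Lpl, Lipa, Plin2 and Soat1, and none rose. Leaving out 1 library kept 4 of these calls without SLIT2 replicate 1 or 4 or vehicle replicate 3, and 3 of them without any of the other 5 libraries. With duplicates averaged and the replicate pair as a block, Cd36 alone of the 10 passed (adjusted p = 0.0361). The count of 5 of 10 stands against 13.3% of all genes tested that passed in either direction with 6.58% lower and 6.76% higher. The 10 genes were chosen with earlier results of these data known. Their mean levels lay between the 89.1 and 99.9 percentiles of all genes tested, so that share is not from genes of like level. A fall of at least 0.5 on the log2 scale past the threshold was seen for 4 of the 10 genes and for 2.67% of all genes tested. The median difference over the 10 genes was -0.30, and over all genes tested 0.0025.

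The promoters of the 3 genes with the firmest falls, Cd36, Lipa and Plin2, are shown beside that of Abca1, an efflux gene that did not pass the test. Each sequence is the 250 bases before a start site listed by RefSeq on GRCm38.p6, read 5′ to 3′ on the minus strand, which is the strand of all 4 genes. They are chr5:17835897-17836146 for Cd36, chr19:34527475-34527724 for Lipa, chr4:86670060-86670309 for Plin2 and chr4:53159896-53160145 for Abca1. The Cd36 window lies inside the span that GENCODE M21 gives the gene, which is known to have alternative first exons. A stretch of 30 bases downstream of its start site was not found whole in a GENCODE M21 transcript of the gene. Whether the start site itself is listed there was not tested. Capitals mark exact matches, on either strand, to the GC box GGGCGG, the CCAAT box CCAAT, the E-box CACGTG and the nuclear receptor half-site AGGTCA.
Cd36: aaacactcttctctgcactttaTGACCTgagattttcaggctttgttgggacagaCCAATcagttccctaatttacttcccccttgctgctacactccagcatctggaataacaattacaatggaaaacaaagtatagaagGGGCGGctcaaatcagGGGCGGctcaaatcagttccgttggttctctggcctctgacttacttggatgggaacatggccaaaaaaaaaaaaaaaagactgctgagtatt
Lipa: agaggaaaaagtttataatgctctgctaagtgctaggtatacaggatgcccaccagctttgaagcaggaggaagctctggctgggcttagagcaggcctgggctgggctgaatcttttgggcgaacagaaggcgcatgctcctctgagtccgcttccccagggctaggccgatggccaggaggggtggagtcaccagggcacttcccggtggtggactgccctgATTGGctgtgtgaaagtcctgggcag
Plin2: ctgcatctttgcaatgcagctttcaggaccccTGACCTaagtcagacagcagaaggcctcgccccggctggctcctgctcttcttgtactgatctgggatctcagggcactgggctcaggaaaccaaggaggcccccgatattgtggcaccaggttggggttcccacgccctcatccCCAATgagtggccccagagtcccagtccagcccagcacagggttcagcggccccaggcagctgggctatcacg
Abca1: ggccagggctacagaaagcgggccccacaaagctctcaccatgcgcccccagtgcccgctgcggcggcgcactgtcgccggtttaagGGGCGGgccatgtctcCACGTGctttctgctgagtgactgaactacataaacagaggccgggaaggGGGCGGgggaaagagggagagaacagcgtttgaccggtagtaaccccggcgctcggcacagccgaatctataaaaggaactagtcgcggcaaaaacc
The CCAAT box was in the windows of Cd36, Lipa and Plin2 and also of Soat1 and Npc2, and in 33.8% of all 32851 windows of this length. AGGTCA, the half-site read by nuclear receptors such as the PPAR, RXR and LXR factors, was in the Cd36 and Plin2 windows and in 14.0% of all windows. Exact direct repeats of AGGTCA with 1 base between them (DR1) or 4 bases (DR4) were in none of the 9 windows of the 7 genes matched. They were in 0.0335% and 0.0152% of all windows, too rare for their lack in 9 windows to tell anything. Repeats that depart from these letters were not searched. The GC box was in the windows of Cd36, Abca1 and Npc2 and in 32.7% of all windows. An E-box stood in the Abca1 window alone of the 9, and in 6.02% of all windows. Its longer form TCACGTGA, known from lysosomal gene promoters, was in none of the 9 and in 0.785% of all. The STAT motif TTCNNNGAA was in none of the 9 and in 7.02% of all. The letter N stands for any base, and the E-box and half-site matches count those within the longer forms. A match describes the letters only, and the lack of a match does not show that a binding site is absent. No promoter sequence is given for Abcg1, Lpl or Npc1.

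Cd36, the scavenger receptor that binds oxidized lipoproteins and long-chain fatty acids (chromosome 5, 17781690 to 17888801 in GRCm38), fell most. It had rlog values of 13.57, 13.36, 13.86 and 13.96 in SLIT2 replicates 1 to 4, against 14.82, 14.82, 14.88 and 14.96 in vehicle replicates 1 to 4. Every SLIT2 library lay below every vehicle library. The mean was 13.69 ± 0.27 with SLIT2 and 14.87 ± 0.066 with vehicle (SD, n = 4 each). The log2 difference was -1.18 (SE 0.12, 95% interval -1.47 to -0.90, limma adjusted p = 6.56e-04), so that Cd36 fell by 55.9% on the linear scale. By absolute difference Cd36 ranked 125 among the 11851 genes tested. Within replicates 1 and 2 the difference was -1.36, and within replicates 3 and 4 it was -1.01. The SLIT2 libraries were also the more spread, with replicates 3 and 4 above replicates 1 and 2. As the libraries are from bulk cultures, fewer cells with the RNA and less RNA per cell cannot be told apart, here or below.

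Lpl encodes lipoprotein lipase, which macrophages secrete (chromosome 8, 68880491 to 68907448). Its values were 16.61, 16.55, 17.24 and 17.47 in SLIT2 replicates 1 to 4, against 17.64, 17.65, 17.98 and 18.01 in vehicle replicates. The groups did not overlap, and in both of them replicates 3 and 4 were the higher pair. The difference was -0.85 (SE 0.22, 95% interval -1.36 to -0.35, limma adjusted p = 0.0383), with -1.06 in the first pair of replicates and -0.64 in the second. The division by replicate number took 28.7% of the sum of squares of Lpl. The call was close to the threshold and was kept only without SLIT2 replicate 4 (adjusted p = 0.0164). It was lost without SLIT2 replicate 1 (0.0923), 2 (0.0933) or 3 (0.0504) and without vehicle replicate 1 (0.0651), 2 (0.0667), 3 (0.0949) or 4 (0.0947).

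**Figure D1:**
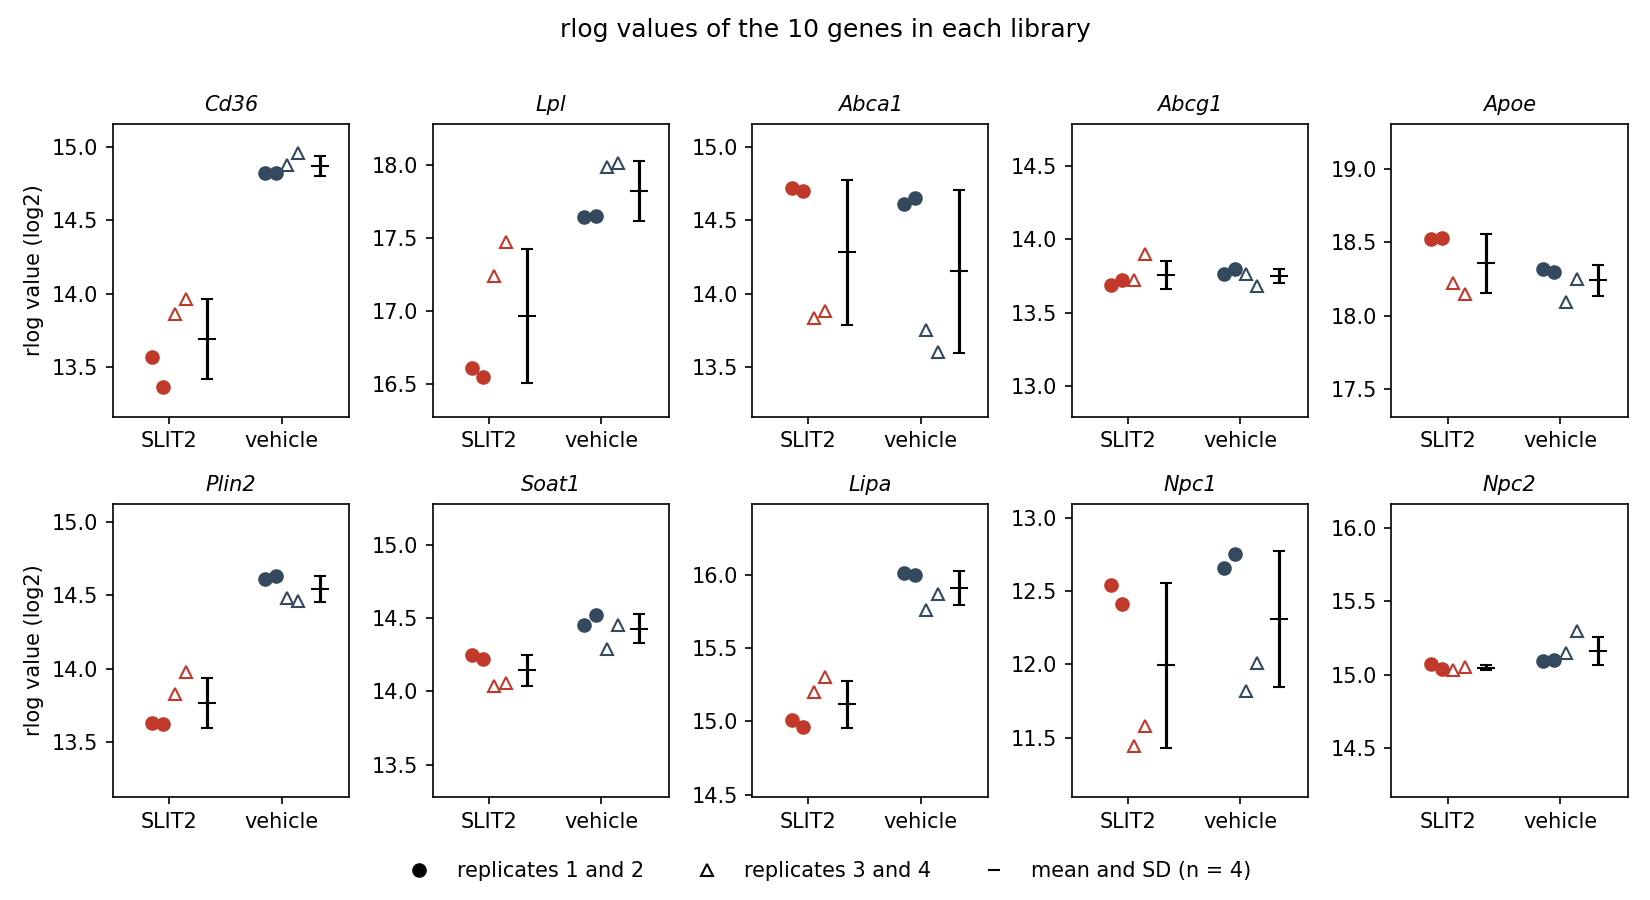
rlog values (log2, vertical axis spanning 2 units in each panel) of the 10 genes in the 4 SLIT2 and 4 vehicle libraries; filled circles are replicates 1 and 2, open triangles replicates 3 and 4, and bars the mean and SD. Cd36, Lpl, Plin2, Soat1, Lipa and, narrowly, Npc2 lie lower in every SLIT2 library than in every vehicle library, and Abca1 and Npc1 split by replicate number instead.

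Both storage genes fell, by unequal amounts. Plin2 encodes perilipin 2, the coat protein of lipid droplets in macrophages (chromosome 4, 86648386 to 86670060). It had values of 13.63, 13.62, 13.83 and 13.98 with SLIT2, against 14.61, 14.63, 14.48 and 14.46 with vehicle. The groups did not overlap, and replicates 3 and 4 were the higher pair with SLIT2 and the lower pair with vehicle. The mean was 13.77 ± 0.17 with SLIT2 and 14.55 ± 0.087 with vehicle (SD, n = 4 each). Plin2 thus fell by 0.78 on the log2 scale (SE 0.089, limma adjusted p = 9.86e-04), and fell by 41.8% on the linear scale.

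Soat1, the enzyme that esterifies cholesterol for storage (chromosome 1, 156424525 to 156474331), had values of 14.25, 14.22, 14.04 and 14.06 with SLIT2. In vehicle libraries its values were 14.45, 14.52, 14.29 and 14.45. The groups were separated by a narrow gap, from 14.25 in the highest SLIT2 library to 14.29 in the lowest vehicle library. Its difference was -0.28 (SE 0.071, 95% interval -0.45 to -0.12, limma adjusted p = 0.0336), and Soat1 fell by 17.9% on the linear scale. The first pair of replicates gave -0.25 and the second pair -0.32. The call held without SLIT2 replicate 1 or vehicle replicate 3 and was lost without SLIT2 replicate 2 (adjusted p = 0.0537), 3 (0.0847) or 4 (0.0829). It was also lost without vehicle replicate 1 (0.0834), 2 (0.0886) or 4 (0.0787).

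The 3 endolysosomal genes differed among themselves. Lipa, lysosomal acid lipase (chromosome 19, 34492318 to 34527474), had values of 15.01, 14.96, 15.20 and 15.30 with SLIT2, against 16.01, 16.00, 15.76 and 15.87 with vehicle. No SLIT2 library reached the lowest vehicle library. Lipa fell by 0.79 (SE 0.093, 95% interval -1.01 to -0.58, limma adjusted p = 0.00110), and fell by 42.3% on the linear scale. With SLIT2 replicates 3 and 4 were the higher pair, and with vehicle they were the lower pair, as at Plin2. For both genes the effect was therefore smaller in replicates 3 and 4. At Lipa it was -1.02 in the first pair and -0.56 in the second, and at Plin2 -0.99 in the first pair and -0.56 in the second. The difference between the pairs passed a limma interaction test at both genes (0.46, SE 0.067, at Lipa and 0.43, SE 0.064, at Plin2, adjusted p = 0.0127 for each). That test rests on the spread within duplicates, and 4.40% of all genes tested passed it. At Lpl and Cd36 the same difference was 0.42 (adjusted p = 0.0516) and 0.34 (adjusted p = 0.0836), neither past the threshold.

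Npc1, the membrane protein that carries cholesterol out of late endosomes (chromosome 18, 12189692 to 12236400), varied mainly with replicate number. With SLIT2 it had values of 12.54, 12.41, 11.44 and 11.58, against 12.66, 12.75, 11.82 and 12.01 with vehicle. The groups overlapped, while within each replicate pair both SLIT2 libraries were below both vehicle libraries. The difference of -0.32 did not pass without a block (SE 0.31, 95% interval -1.04 to 0.40, limma adjusted p = 0.598). With replicate number as a block the same difference passed (SE 0.053, 95% interval -0.45 to -0.19, adjusted p = 0.00586). It did not pass with duplicates averaged and the replicate pair as a block (adjusted p = 0.0873). With replicate number as the block, 6 of the 10 genes passed, all lower. This stands against 33.0% of all genes tested in either direction and 16.4% lower. Npc1 was the one added by the block. Exons of Npc1 share 511 bases with the opposite-strand gene Rmc1 and 90 bases with the antisense gene Gm15956, and no source used here gives the strand setting of the counting.

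Npc2, the soluble protein that hands cholesterol to NPC1 in the lysosome (chromosome 12, 84754562 to 84773152), was steady in SLIT2 libraries at 15.07, 15.04, 15.03 and 15.05. Vehicle libraries had 15.09, 15.10, 15.15 and 15.30. The groups did not overlap, with 15.07 the highest SLIT2 value and 15.09 the lowest vehicle value, and the difference of -0.11 did not pass (SE 0.056, 95% interval -0.24 to 0.015, limma adjusted p = 0.251). In all, 6 of the 10 genes had no overlap between the groups, all with SLIT2 lower, against 20.5% of all genes tested in either direction and 9.99% with SLIT2 lower.

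**Figure D2:**
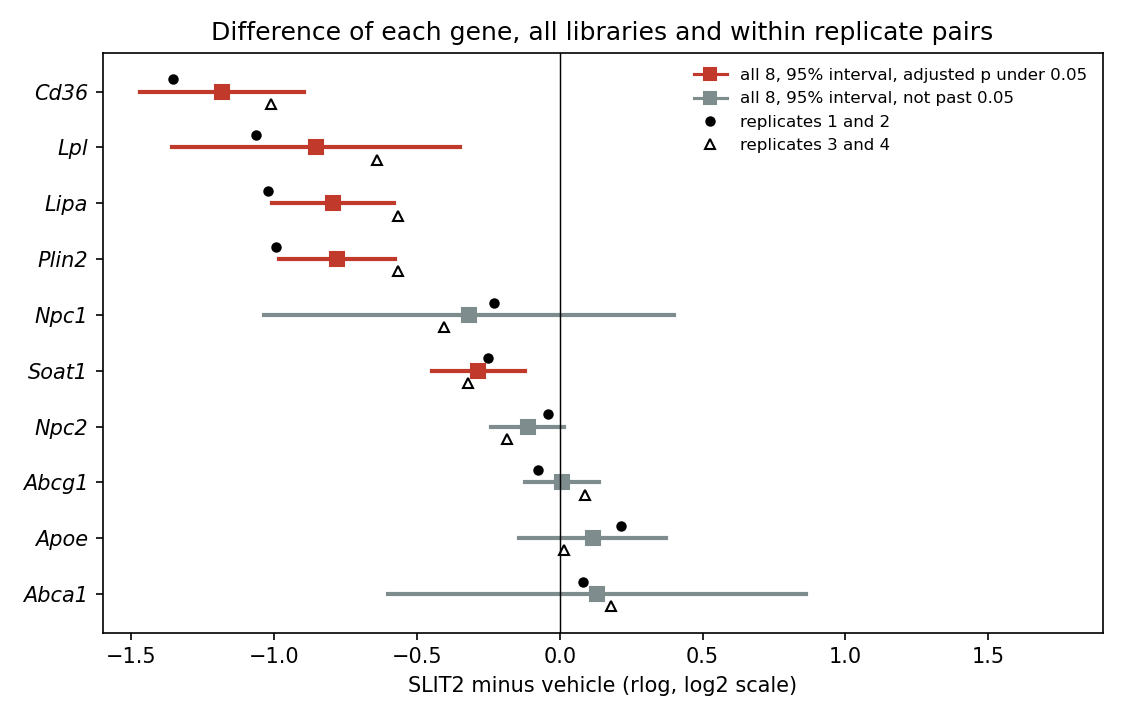
SLIT2 minus vehicle (rlog, log2 scale) of each gene; squares with lines are the difference over all 8 libraries and its 95% limma interval, in red where the adjusted p is under 0.05, circles the difference within replicates 1 and 2, and triangles that within replicates 3 and 4. Cd36 has the lowest difference at -1.18, and the intervals of Npc1, Npc2, Abcg1, Apoe and Abca1 include 0.

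None of the 3 efflux genes passed the test. Abca1, the transporter that loads cholesterol onto lipid-poor apolipoprotein A-I (chromosome 4, 53030787 to 53159895), had values of 14.72, 14.70, 13.83 and 13.88 with SLIT2, against 14.61, 14.65, 13.75 and 13.60 with vehicle. Replicates 1 and 2 were higher than replicates 3 and 4 in both groups, and 96.9% of the variation of Abca1 went with this division, against 2.00% with treatment. The difference was 0.13 (SE 0.32, 95% interval -0.60 to 0.86, limma adjusted p = 0.861). With the replicate block the interval was 0.025 to 0.24 and the adjusted p was 0.0635, so a rise beyond 0.24 lies outside that interval.

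Abcg1, the transporter that passes cholesterol to high-density lipoprotein (chromosome 17, 31057675 to 31117988), was the least changed of the 10. Its values were 13.69, 13.72, 13.72 and 13.90 with SLIT2, against 13.76, 13.80, 13.76 and 13.68 with vehicle. The difference was 0.0075 (SE 0.056, 95% interval -0.12 to 0.14, limma adjusted p = 0.955), with -0.075 in the first pair of replicates and 0.09 in the second. Its sign turned without SLIT2 replicate 4 (-0.04, adjusted p = 0.673) and without vehicle replicate 4 (-0.016, adjusted p = 0.904).

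Apoe, the apolipoprotein that macrophages secrete and that can accept cellular cholesterol (chromosome 7, 19696109 to 19699188), had values of 18.52, 18.53, 18.22 and 18.15 with SLIT2. Vehicle libraries had 18.32, 18.30, 18.09 and 18.25. SLIT2 replicates 3 and 4 lay within the range of the vehicle libraries. The difference of 0.12 did not pass (SE 0.11, 95% interval -0.14 to 0.37, limma adjusted p = 0.595). The first pair of replicates alone gave 0.21 (adjusted p = 0.00333) and the second pair alone 0.015 (adjusted p = 0.924). The difference between the pairs was not called (-0.20, adjusted p = 0.256). With quantile normalization in place of the deposited scaling, Apoe was higher by 0.35 and passed (adjusted p = 0.0152). Its mean level lay at the 99.9 percentile of all genes tested, where that scaling rests on few genes. Of 19 alternatives, Apoe passed in 2, this one and replicates 1 and 2 alone.

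The 10 genes differed in what their values went with. Treatment took 92.1% of the sum of squares at Cd36, 91.5% at Plin2, 91.4% at Lipa, 71.9% at Soat1 and 65.9% at Lpl. At Npc2 it took 46.5%, and at Abcg1, Abca1, Npc1 and Apoe between 0.318% and 14.9%. The division by replicate number led at Abca1, at Npc1 with 85.7% and at Apoe with 65.0%. The spread within duplicates led at Abcg1, with 58.4%.

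**Figure D3:**
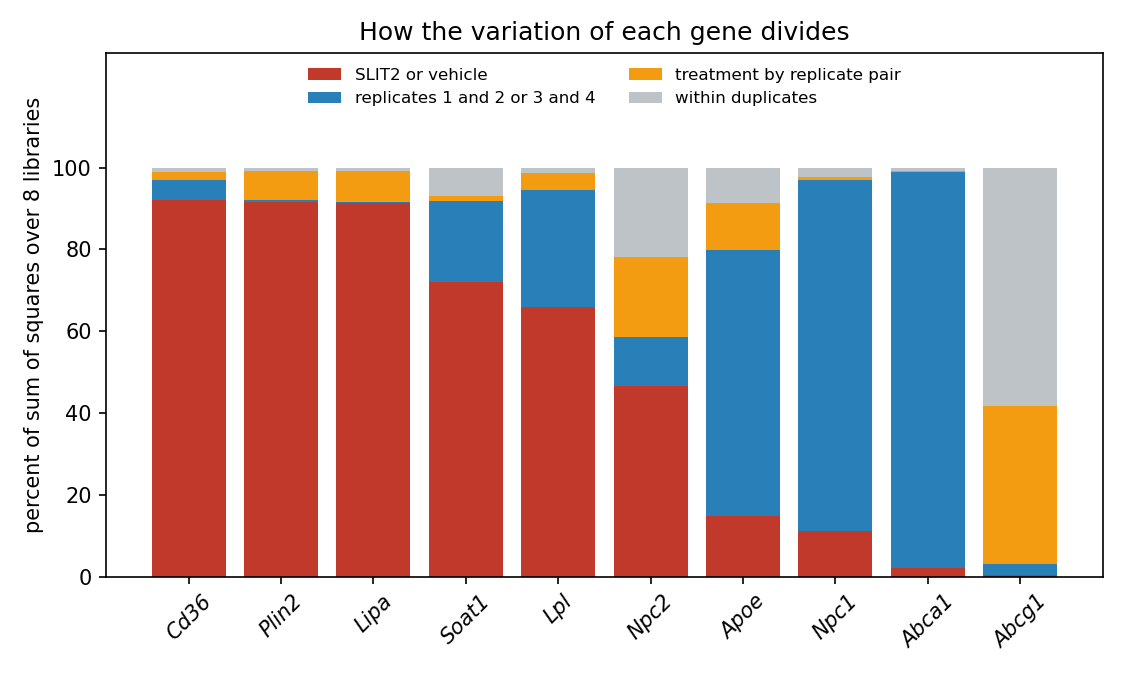
Percent of the sum of squares over the 8 libraries (vertical axis) that went with treatment, with replicates 1 and 2 or 3 and 4, with their interaction and with the spread within duplicates, as stacked bars for each gene. Treatment took 92.1% at Cd36 and 2.00% at Abca1.

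Levels of different genes were set side by side only after dividing by exonic length from GENCODE M21, as rlog minus the log2 of exonic kilobases. This length joins the exons of all transcripts listed for a gene, so it can exceed that of the transcript made. The ranks and the order below depend on it. On that scale Apoe led in both groups, at 17.26 ± 0.20 with SLIT2 and 17.14 ± 0.10 with vehicle (SD, n = 4 each), ranking 8 and 9 among the 11814 tested genes with a length. Lpl came next, at 13.58 ± 0.46 with SLIT2 and 14.43 ± 0.20 with vehicle, ranking 107 and 56. With SLIT2 the order went on with Npc2 (12.60), Lipa (12.36), Plin2 (11.95), Cd36 (11.84), Abca1 (10.91), Abcg1 (10.89), Soat1 (10.85) and Npc1 (8.49). Libraries of Plin2 and Cd36 overlapped there, as did those of Abca1 and Abcg1 and those of Abcg1 and Soat1. With vehicle the order after Lpl was Lipa (13.15), Cd36 (13.03), Plin2 (12.73), Npc2 (12.72), Soat1 (11.14), Abcg1 (10.88), Abca1 (10.78) and Npc1 (8.81). There the libraries of Lipa and Cd36, of Plin2 and Npc2 and of Abcg1 and Abca1 overlapped. Npc2 stood above Lipa, Plin2 and Cd36 in the SLIT2 order and below all 3 in the vehicle order, where its libraries overlapped those of Plin2. Npc2 itself did not pass the test.

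**Figure D4:**
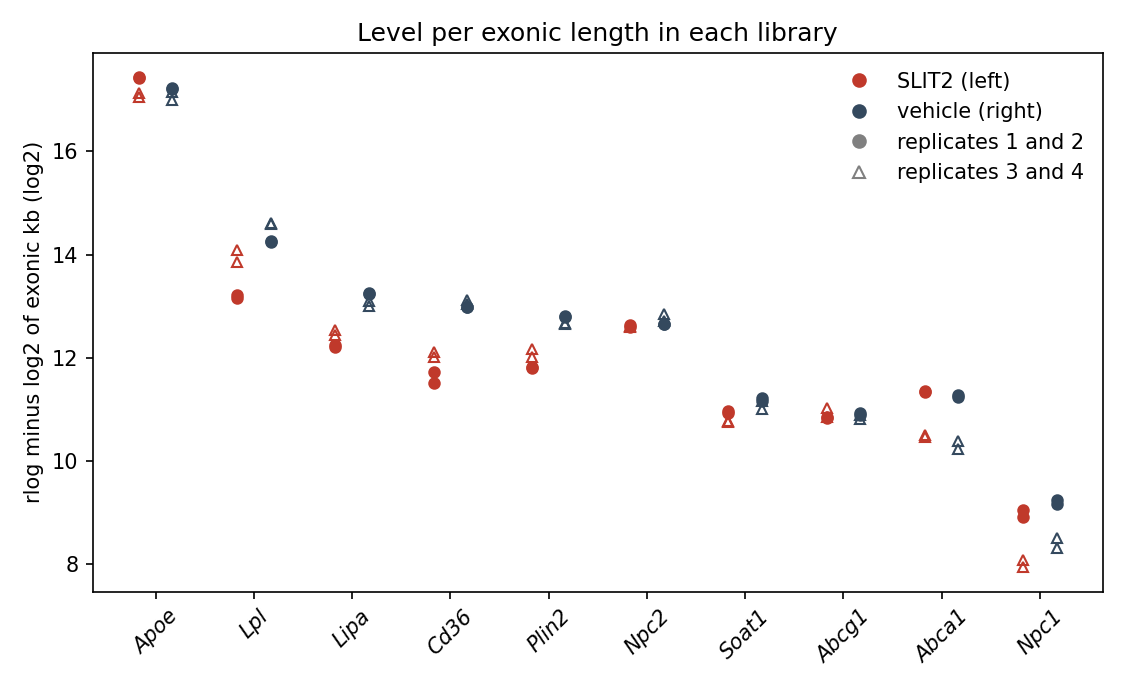
Level of each gene per exonic length (rlog minus log2 of exonic kilobases, log2 scale) in each SLIT2 (left, red) and vehicle (right, dark) library; filled circles are replicates 1 and 2 and open triangles replicates 3 and 4. Apoe is highest and Npc1 lowest in every library.

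Other genes of the same pathways moved in both directions. Over 6 lists of uptake, lipoprotein lipase handling, efflux, lipid droplet, endolysosomal and transcription factor genes, 98 genes besides the 10 were tested, of which 22 rose and 13 fell. This is 35.7%, against 13.3% of all genes tested, and 63.3% with the replicate block, against 33.0%. Their median difference was 0.084. The lists were written with earlier results of these data known, and the shares are not matched for level.

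Among 18 other uptake genes 3 rose, 3 fell and 12 did not pass, with a median of 0.18. Fabp5, a fatty acid binding protein, had values of 16.01, 16.00, 16.08 and 15.95 with SLIT2, against 15.04, 15.08, 15.35 and 15.59 with vehicle. The groups did not overlap. Fabp5 rose by 0.74 (SE 0.12, limma adjusted p = 0.00476) and Cxcl16, a chemokine whose membrane form also binds oxidized lipoproteins, by 0.61 (adjusted p = 0.00678). Cxcl16 shares 552 exonic bases with Zmynd15 on the opposite strand. The scavenger receptor Msr1, named after its values were seen, had a difference of 0.55 (adjusted p = 0.0862, and 6.85e-05 with the replicate block), opposite in sign to that of Cd36.

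Of 8 other genes for lipoprotein lipase handling, 1 rose and 2 fell, with a median of 0.11. Angptl4, a secreted inhibitor of lipoprotein lipase, had values of 6.29, 6.30, 6.79 and 6.91 with SLIT2, against 7.85, 7.76, 7.35 and 7.19 with vehicle. It fell by 0.96 (SE 0.20, limma adjusted p = 0.0161, and 0.0502 without SLIT2 replicate 2). Its difference was -1.51 in the first pair of replicates and -0.42 in the second, and these differed by the interaction test (adjusted p = 0.00667). Apoc2, the cofactor that activates the enzyme, rose by 0.82 (adjusted p = 0.00128), but 646 of its exonic bases lie in the same-strand gene Gm44805, so its value is uncertain. Sort1, a sorting receptor that binds lipoprotein lipase, fell by 0.68 (adjusted p = 0.00916).

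In the efflux list 3 of 14 other genes rose and 3 fell, with a median of 0.074. Ch25h, which makes 25-hydroxycholesterol, rose by 1.23 (SE 0.23, limma adjusted p = 0.0110), with values between 7.16 and 8.16 in SLIT2 libraries and between 6.11 and 6.82 in vehicle libraries. Apoc2, also counted here, rose as given above. Abcb4, a phospholipid transporter best known from liver, fell by 0.78 (adjusted p = 0.0154).

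Of 14 lipid droplet genes tested besides Plin2 and Soat1, 2 rose, 1 fell and 11 did not pass, with a median of -0.029. These calls were 21.4% of the list, against 13.3% of all genes tested. With the replicate block 3 were higher and 4 lower, or 50%, against 33.0% of all genes tested. Soat2, the other cholesterol esterifying enzyme, rose by 1.03 (SE 0.19, limma adjusted p = 0.00948), opposite to Soat1, with values of 6.71, 6.68, 7.24 and 7.25 in SLIT2 libraries and 5.81, 5.60, 6.11 and 6.23 in vehicle libraries. Lipe, hormone-sensitive lipase, rose by 0.49 (adjusted p = 0.0307), a call lost without SLIT2 replicate 1 (0.0807) or 2 (0.0765) or vehicle replicate 3 (0.0772) or 4 (0.0724). Nceh1, a cholesteryl ester hydrolase of macrophages, fell by 0.23 (adjusted p = 0.0100). Mgll, monoacylglycerol lipase, named after its values were seen, had the widest difference of the list at -1.23 but did not pass (SE 0.46, adjusted p = 0.131, and 0.00131 with the replicate block).

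Among 27 other endolysosomal transport genes 7 rose and 2 fell, with a median of 0.11. The sterol carriers Stard4 and Gramd1a rose by 0.72 (limma adjusted p = 5.58e-04) and 0.58 (adjusted p = 0.0167). Of the oxysterol-binding protein family, Osbpl11 rose by 0.45 (adjusted p = 0.0116) and Osbpl8 fell by 0.34 (adjusted p = 0.00584). Lamp1, a structural gene of the lysosomal membrane named after its values were seen, had a difference of -0.015 (adjusted p = 0.935). Exons of Gramd1a overlap genes on the opposite strand, as do those of Sort1, Ch25h, Lipe and Cebpa.

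Of 20 transcription factors and cofactors known to act on lipid genes, 7 rose and 4 fell, with a median of 0.019. Tfec, of the MiT family, rose by 1.32 (SE 0.052, limma adjusted p = 8.59e-06) and Klf4, a zinc finger factor, by 0.87 (adjusted p = 0.0139). The family did not move as 1, since Tfeb fell by 0.51 (adjusted p = 0.0310) and Mitf by 0.37 (adjusted p = 0.00979). Its member Tfe3 did not pass (-0.035, adjusted p = 0.799). Cebpa, a myeloid factor, fell by 0.66 (adjusted p = 3.46e-04). Pparg and Nr1h3, named after their values were seen, encode nuclear receptors known to activate Cd36 and Abca1. Pparg had values of 8.90, 9.01, 9.81 and 9.92 with SLIT2, against 9.86, 9.61, 10.16 and 10.54 with vehicle, a difference of -0.63 (adjusted p = 0.207, and 0.00365 with the replicate block). Nr1h3, the gene of LXR alpha, had 9.42, 9.42, 9.60 and 9.68 with SLIT2 and 9.73, 9.79, 10.18 and 10.46 with vehicle, a difference of -0.51 (adjusted p = 0.0788, and 0.00490 with the block). The related genes Ppard and Nr1h2 went the other way and passed, with rises of 0.55 (adjusted p = 0.00338) and 0.195 (adjusted p = 0.0422). The part of these receptors in the results was not tested.

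**Figure D5:**
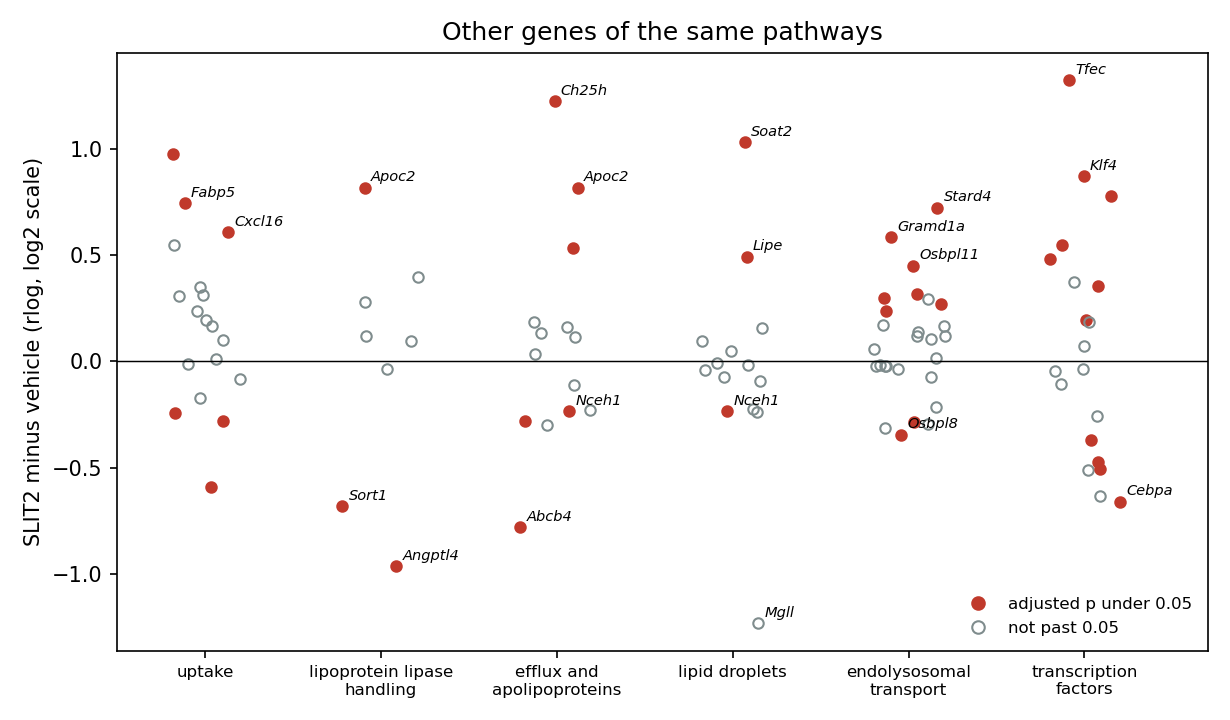
SLIT2 minus vehicle (rlog, log2 scale) of the tested genes of each list besides the 10; filled red points have a limma adjusted p under 0.05, open points do not, and points are spread sideways for sight only. Tfec is highest at 1.32, and Mgll, which did not pass, is lowest at -1.23.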

How the data were processed

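Per the labels' protocols, total RNA was turned into stranded mRNA libraries, which were read from both ends. The tools named per the submitters' processing notes are STAR, Salmon, DESeq2, Picard 2.23.8, SAMtools 1.7 and FastQC 0.11.9, and the builds GRCm38 and mm10. What each tool was used for, and how it was set, is not given there. The deposited values are rlog values on a log2 scale with 2 decimals, which the authors' transform corrects for library size and shrinks towards each gene's mean, most at low counts.

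Differences were fitted in R 4.3.3 with limma 3.58.1 for the 11851 genes whose rlog averaged 4 or more (eBayes with trend, two-sided, Benjamini-Hochberg over all genes tested, threshold 0.05), treatment only. Labels number replicates 1 to 4 in both groups. Deviations from the group means correlated across genes between same-numbered samples (r = 0.637, 0.671, 0.753 and 0.587 for replicates 1 to 4). Every r exceeded 0.1, and the samples were treated as paired in the block. They share the pair 1 and 2 or 3 and 4 rather than the single number, since replicate 1 minus 2 correlated at -0.042 and 3 minus 4 at 0.088 between the groups.

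Members, lists and motifs were chosen with earlier results of these data known. Named besides the 10 were, from each list, up to 4 genes past the threshold with the widest difference. Added after their values were seen were Xist, Ddx3y, Tyrobp, Msr1, Mgll, Lamp1, Pparg, Nr1h3, Tfeb, Mitf, Tfe3, Ppard and Nr1h2, and the markers named. Some genes that this rule names are not reported here, though the counts include them. Lists were matched by gene identifier to current symbols. Positions, lengths and overlaps came from GENCODE M21 (GRCm38) and promoters from RefSeq on GRCm38.p6, with 7 of the 10 genes matched. The fits were also run on simulated data with independent noise in each library. That setting cannot show how they behave if duplicates share a source. Alternatives were a replicate block, other filters, priors, scalings and weights, averaged duplicates, each replicate pair alone and leaving out each library. Figures were drawn with matplotlib 3.10.9.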

Additional observations from a re-analysis of the deposited data

Results flagged for a closer look

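The effect of SLIT2 on Lipa and on Plin2 differed between the replicate pairs by a limma interaction test. The SLIT2 minus vehicle difference in replicates 3 and 4 exceeded that in replicates 1 and 2 by 0.455 at Lipa and by 0.43 at Plin2 (adjusted p = 0.0127 for each), and both genes were lower with SLIT2 in each pair. In all, 521 genes passed this test, 4.40% of those tested. In settings chosen after seeing the data, the call was lost at both genes with eBayes without a trend (adjusted p = 0.0607 at Lipa and 0.0651 at Plin2). It was lost at both genes without SLIT2 replicate 2 (0.0556 and 0.0539), vehicle replicate 1 (0.0630 and 0.0573) or vehicle replicate 2 (0.0501 and 0.0515), and at Plin2 also without SLIT2 replicate 1 (0.0521).

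Abcg1 in SLIT2 replicate 4, at 13.90, stood apart from the other 3 SLIT2 libraries, which lay between 13.69 and 13.72. The gap to the nearest was 0.857 of the group's range, above Dixon's 95% critical value for 4 samples. Chance alone passes that value in about 1 group of 20.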

How the results depend on the processing

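Cd36 kept its direction and its call in all 19 alternatives, between -1.36 and -1.01, and Npc2 stayed uncalled and lower in all 19. Lipa and Plin2 lost their calls in 1 alternative, with duplicates averaged and the replicate pair as a block (-0.79, adjusted p = 0.0761, and -0.78, adjusted p = 0.0705). In that setting Lpl (-0.85, adjusted p = 0.0720) and Soat1 (-0.28, adjusted p = 0.0705) were also lost, and 1 of the 10 genes and 688 of all genes passed; it has 4 averaged samples. Leaving out each library gave between 3 and 4 of the 10 genes and between 1021 (without SLIT2 replicate 2) and 1254 of all genes. It gave between -1.02 and -0.71 at Lpl, between -0.33 and -0.25 at Soat1, between -0.054 and 0.30 at Abca1 and between -0.04 and 0.03 at Abcg1. Abca1 turned sign without SLIT2 replicate 1 (-0.016) or 2 (-0.0092) or vehicle replicate 3 (-0.0042) or 4 (-0.054). Abcg1 turned with quantile normalization (-0.029) and in replicates 1 and 2 alone (-0.075). Apoe passed with quantile normalization (0.35) and in replicates 1 and 2 alone (0.21). Npc1 passed with the replicate block (-0.32), in replicates 1 and 2 alone (-0.23) and in replicates 3 and 4 alone (-0.40), but not with duplicates averaged (-0.32, adjusted p = 0.0873).

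All genes past the threshold numbered 3912 with the replicate block, 3962 in replicates 1 and 2 alone and 2880 in replicates 3 and 4 alone. The block changed no call among the 10 other than that of Npc1. With the 10 genes included, lists gave 12, 10, 9 and 19 calls with the block for uptake, efflux, droplets and endolysosome, against 7, 6, 5 and 10 without it. Averaged duplicates gave 3, 2, 2 and 1 for these, 2 for lipoprotein lipase handling against 4, and 6 for transcription factors against 11. Replicates 1 and 2 alone gave 13 for uptake, 12 for efflux, 21 for the endolysosome and 7 for lipoprotein lipase handling. Leaving out each library gave 2 to 4 for lipoprotein lipase handling (2 without SLIT2 replicate 2) and 3 to 4 for droplets (3 without SLIT2 replicate 2 or vehicle replicate 4). The count of genes whose effect differed between the replicate pairs was 294 with no filter on the mean, 116 without a trend and between 122 and 579 when leaving out each library (579 without vehicle replicate 3, and at most 346 without any other). There the difference was 0.40 to 0.51 at Lipa and 0.35 to 0.51 at Plin2, and without a trend 0.455 and 0.43. The cause of these changes was not tested. The depth is unknown, and nothing here limits differences at genes below the filter.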
